A study of Mus musculus with 6 samples.

Results

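The genes described here encode the proteins of the cytosolic ribosome. They were taken by symbol from the protein-coding genes of chromosomes 1 to 19 in GENCODE release M21 (GRCm38): the numbered Rpl and Rps genes, Rpsa, Rplp0, Rplp1, Rplp2 and Fau, without pseudogenes, kinases of the Rps6k family, Rps19bp1 and the paralogues that carry a suffix of their own. This gave 75 of 20722 genes, with 43 of the large (60S) and 32 of the small (40S) subunit. The rule uses gene names and no measured value. It includes Rps27rt, a single-exon copy of Rps27. The X-linked Rpl10, Rpl36a, Rpl39 and Rps4x lie outside it.

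The study mapped Tex10 and trimethylated lysine 4 of histone H3 (H3K4me3) by chromatin immunoprecipitation and sequencing (ChIP-seq). The cells were mouse primordial germ cell-like cells, cultured cells that resemble the embryonic founders of eggs and sperm. All 6 samples were untreated day 2 cells of strain 129Sv/J whose Tex10 protein carries an HA tag at its C-terminus: 2 with an antibody to the tag (HA-Tex10), 2 with an antibody to H3K4me3 and 2 of input DNA. The labels do not say whether the tagged line is a single clone, and they name no untagged control. The deposited lists hold 1 set of intervals per antibody, 4331 for HA-Tex10 and 29072 for H3K4me3, with no height, score or replicate. There is therefore no replicate error, no comparison of samples can be tested, the sequencing depth is unknown, and where no interval is listed HA-Tex10 was not detected, which does not show that it is absent. Intervals in parentheses are exact binomial 95% intervals and cover the counting of genes only.

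Every ribosome holds a single copy of nearly all of these proteins, and their genes are highly transcribed in growing cells. Their messenger RNAs start with a run of pyrimidines (the TOP element) through which mTOR signalling controls translation, and many of the genes carry small nucleolar RNAs (snoRNAs), guides of ribosomal RNA modification, in their introns. H3K4me3 marks the promoters of active genes and usually reaches further downstream than upstream of the transcription start site (TSS). Tex10 is a subunit of a nucleolar complex with Pelp1, Wdr18, Las1l, Nol9 and Senp3 that acts in the maturation of the 60S subunit, and it has also been described on chromatin in pluripotent cells.

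HA-Tex10 lay within 1 kb of a coding TSS at 31 of the 75 genes (41.3%, 30.1 to 53.3%). Over all protein-coding genes of these chromosomes 9.13% were called by this rule, and 14.3% of the 12966 genes with H3K4me3. The 60S genes carried an interval in 21 of 43 cases (48.8%, 33.3 to 64.5%) and the 40S genes in 10 of 32 (31.2%, 16.1 to 50%). These counting intervals overlap, and the difference between the subunits was not tested. The share stayed between 37.3% and 45.3% over TSS windows from 250 bp to 5 kb. Over all protein-coding genes it went from 7.65% at 250 bp to 11.2% at 5 kb.

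The sequences of 9 HA-Tex10 intervals are shown as examples. They were taken from those with at most 30 untranslated exon bases and a limited width, so they are not a typical draw. None has a coding TSS inside it, whereas 17 of the 36 intervals at these genes do. The 2 intervals made mostly of sequence repeated in the genome are both among them. The sequences read in the direction of the gene on GRCm38. Capitals mark matches to 8 short motifs on either strand, which are spelled out with the promoters below, and an interval without capitals held none.
Rpl3, chr15:80083159-80083323, minus strand: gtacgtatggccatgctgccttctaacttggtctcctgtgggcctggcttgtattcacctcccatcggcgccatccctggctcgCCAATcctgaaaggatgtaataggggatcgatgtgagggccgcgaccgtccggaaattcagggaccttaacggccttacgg
Rpl37, chr15:5116337-5116499, plus strand: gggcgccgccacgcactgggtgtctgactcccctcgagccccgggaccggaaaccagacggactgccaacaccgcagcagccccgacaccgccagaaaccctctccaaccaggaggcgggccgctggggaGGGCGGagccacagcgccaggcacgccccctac
Rpl36, chr17:56613421-56613646, plus strand: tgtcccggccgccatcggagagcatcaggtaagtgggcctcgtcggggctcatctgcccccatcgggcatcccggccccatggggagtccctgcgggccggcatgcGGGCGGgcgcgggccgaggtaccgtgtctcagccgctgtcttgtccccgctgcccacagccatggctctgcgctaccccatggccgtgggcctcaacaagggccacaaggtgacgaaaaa
Rpl7a, chr2:26910806-26911089, plus strand: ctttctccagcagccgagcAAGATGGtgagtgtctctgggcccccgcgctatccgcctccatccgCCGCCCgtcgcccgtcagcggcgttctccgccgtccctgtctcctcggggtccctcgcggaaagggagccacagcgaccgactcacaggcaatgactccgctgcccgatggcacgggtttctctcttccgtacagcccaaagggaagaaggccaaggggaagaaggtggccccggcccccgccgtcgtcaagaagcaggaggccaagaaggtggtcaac
Rpl12, chr2:32962265-32962448, plus strand: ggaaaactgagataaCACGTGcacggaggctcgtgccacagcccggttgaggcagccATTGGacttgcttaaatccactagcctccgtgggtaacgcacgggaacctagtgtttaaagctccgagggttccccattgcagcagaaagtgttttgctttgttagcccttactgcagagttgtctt
Rps2, chr17:24719616-24719731, plus strand: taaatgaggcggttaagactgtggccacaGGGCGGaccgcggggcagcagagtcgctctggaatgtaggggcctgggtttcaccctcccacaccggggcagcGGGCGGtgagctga
Rps2, chr17:24720319-24720582, plus strand: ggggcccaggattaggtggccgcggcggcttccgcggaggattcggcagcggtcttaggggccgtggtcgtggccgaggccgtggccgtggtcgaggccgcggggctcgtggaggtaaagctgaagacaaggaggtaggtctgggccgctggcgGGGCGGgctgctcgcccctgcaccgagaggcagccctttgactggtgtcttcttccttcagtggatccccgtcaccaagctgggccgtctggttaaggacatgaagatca
Rps6, chr4:86856515-86856587, minus strand: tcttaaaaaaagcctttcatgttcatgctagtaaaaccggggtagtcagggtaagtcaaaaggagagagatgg
Rpl23a, chr11:78184502-78184664, minus strand: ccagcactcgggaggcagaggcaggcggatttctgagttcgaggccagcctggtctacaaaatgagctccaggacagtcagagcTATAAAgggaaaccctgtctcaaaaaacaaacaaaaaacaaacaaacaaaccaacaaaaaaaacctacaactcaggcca
The first 4 lie near a coding TSS and are 57.6, 73.0, 69.5 and 66.2% GC. Rpl36 and Rpl7a have their interval centred in an intron just inside the gene, and Rpl37 has it upstream. The Rpl3 interval is centred in an intron just past a coding TSS that lies inside the annotated gene, since a longer transcript starts further upstream. The Rps6 interval had the lowest GC content of the 36 intervals at these genes, 41.1%. The Rpl23a interval consists mostly of words of sequence that occur elsewhere in the genome.

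Among the 60S genes, Rpl5 and Rpl11 encode the proteins that bind 5S ribosomal RNA and, outside the ribosome, the p53 regulator Mdm2. Both carried an HA-Tex10 interval. At Rpl11 it was 228 bp wide and ran from -5 to 222 bp, counted from a TSS with upstream negative. At Rpl5 it was 241 bp wide and ended 49 bp upstream of the nearest annotated TSS, which lies inside the gene. Of the acidic stalk genes, whose products recruit translation factors, Rplp2 had an interval of 309 bp over a TSS, and none was detected within 1 kb of Rplp0 or Rplp1. Rpl3, whose product reaches the peptidyl transferase centre, had an interval of 165 bp from 83 to 247 bp downstream of that internal TSS.

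Other 60S genes with an interval also encode core proteins of the large subunit. A TSS lay inside the interval at Rpl7 (-161 to 144 bp), Rpl15 (-102 to 43 bp), Rpl18 (-81 to 100 bp), Rpl19 (-161 to 57 bp), Rpl21 (-1 to 276 bp), Rpl23 (-38 to 260 bp), Rpl26 (-174 to 169 bp) and Rpl30 (-167 to 64 bp). It lay wholly downstream of the nearest TSS at Rpl7a (42 to 325 bp), Rpl12 (706 to 889 bp) and Rpl36 (5 to 230 bp and 377 to 438 bp). It lay wholly upstream at Rpl9 (-145 to -31 bp), Rpl13a (-442 to -180 bp and -461 to -221 bp, each from another TSS), Rpl23a (-1080 to -918 bp) and Rpl37 (-308 to -146 bp). Starts were thus met from either side.

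Rpl13, on chromosome 8, had an interval of 521 bp, from 20 to 540 bp downstream. Of all protein-coding genes, 1891 of 20722 (9.13%) carried HA-Tex10 with that chromosome counted and 1580 of 19685 (8.03%) without it. Calls were thus more frequent on chromosome 8 than on the others, and 2 of its 2 ribosomal protein genes had one. Without that chromosome, 29 of 73 ribosomal protein genes (39.7%) carried HA-Tex10, against the 8.03% of all genes outside it.

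Of the 10 40S genes with an interval, Rps7 (-42 to 192 bp) and Rps19 (-20 to 311 bp), genes mutated in Diamond-Blackfan anaemia, had it over a TSS. Rps18 had an interval over a TSS (-46 to 465 bp) and another upstream (-429 to -195 bp). Rps2 had none over a TSS but an interval on either side (-447 to -332 bp and 68 to 331 bp), and at Rps3a1 it began just inside the gene (14 to 133 bp). At Rps25 the interval of 296 bp was centred within 1 bp of a TSS (0.5 bp downstream), and at Rps29 the interval of 391 bp was centred 14 bp downstream. At Rps3, whose product lines the entry of the messenger RNA channel, it ran from -92 to 136 bp. Of the genes whose product is made as a fusion to ubiquitin or a ubiquitin-like protein, Rps27a had 2 intervals (82 to 112 bp and 127 to 395 bp, from different TSSs) and Fau had none within 1 kb. The nearest to Fau was 9567 bp away. Rps6, which encodes the phosphorylation target of the S6 kinases, had an interval of 73 bp in an intron, 825 to 897 bp downstream.

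There were 36 intervals at the 31 genes, 26 genes with 1 and 5 with 2 (Rpl13a, Rpl36, Rps2, Rps18 and Rps27a). The narrowest was the interval of 31 bp at Rps27a. The median width was 235 bp (interquartile range 164.5 to 296.75 bp), against 234 bp for the 1771 intervals at any coding TSS, so the widths were alike. A TSS lay inside 17 of the 36 (47.2%), against 40.4% of the 2105 pairs of gene and interval over all genes. The centres fell in an exon of the gene in 14 cases, in an intron in 16 and upstream in 6. This split was not counted over all genes. Relative to the nearest coding TSS of the gene, the median centre was 18 bp downstream (interquartile range -61.0 to 150.375 bp), and over all genes with HA-Tex10 it was at -41.5 bp. Centres were downstream in 22 of 36 cases (61.1%), against 42.1% of the 2105 pairs of gene and interval over all genes. These pairs, from which the 40.4% and the -41.5 bp also come, hold 1771 distinct intervals, as an interval near several genes enters once for each. The 36 were all distinct, so the counting was not alike. The position at ribosomal protein genes also depends on the annotation: measured from the most upstream TSS of each gene, the median became 166 bp downstream.

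**Figure D1:**
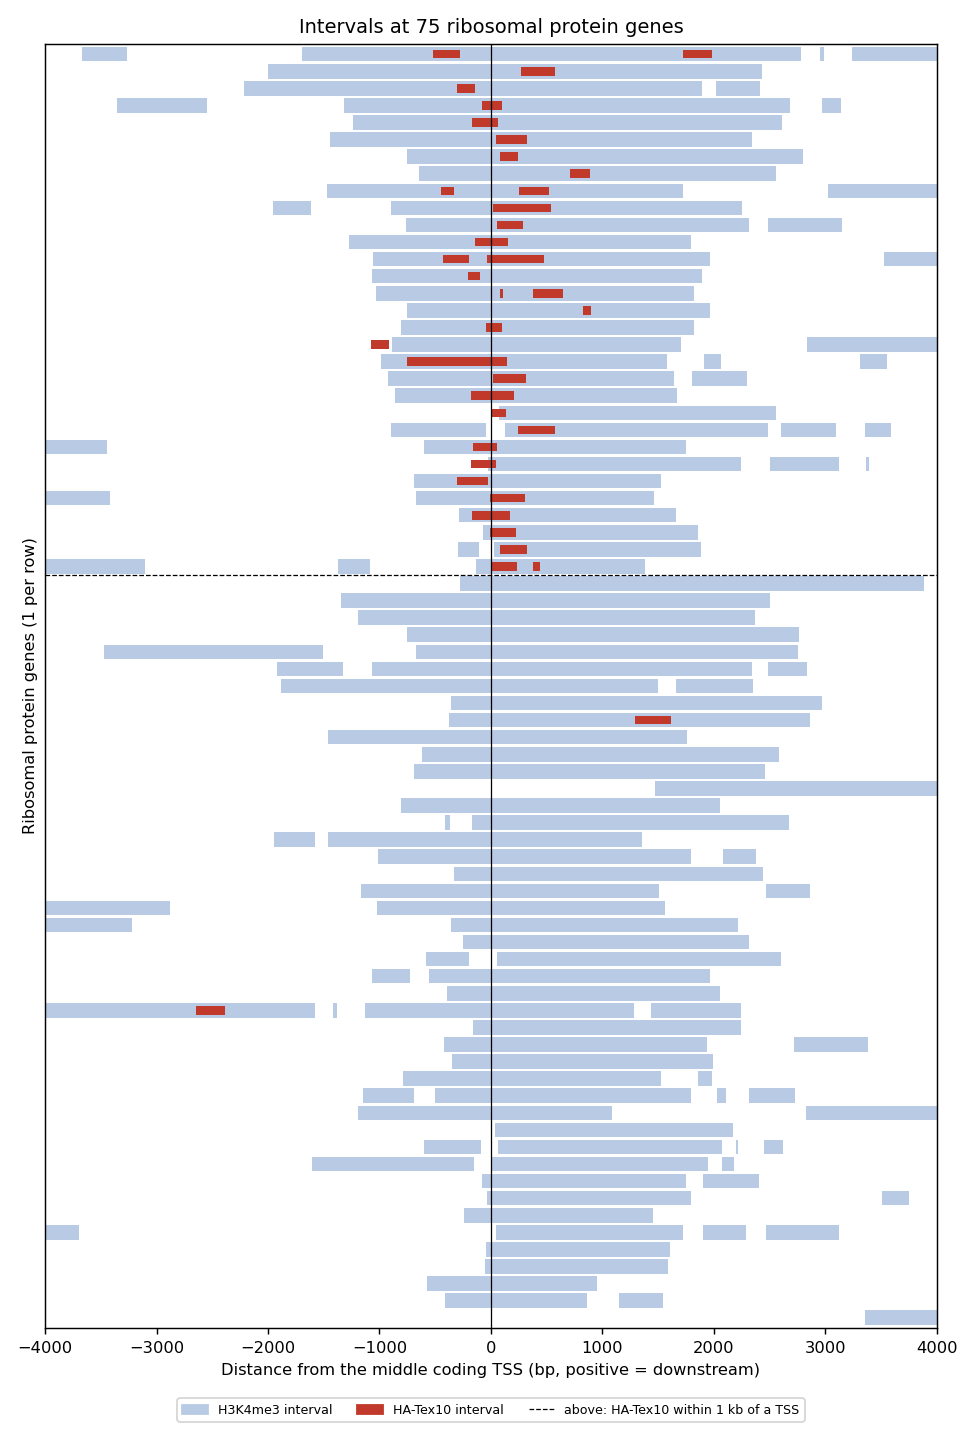
Intervals around the 75 ribosomal protein genes, 1 gene per row, by distance in bp from the middle coding TSS of the gene (the median of its annotated starts, so that distances differ from those to the nearest TSS). Pale bars are H3K4me3 intervals and red bars HA-Tex10 intervals; genes are ordered by H3K4me3 width within the 31 genes with HA-Tex10 (above the dashed line) and the 44 without, and most red bars sit at or just right of 0 inside a pale bar.

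Around the middle TSS of the 74 ribosomal protein genes with H3K4me3, coverage by HA-Tex10 was highest 100 bp downstream, at 24.3% of genes. Around the 12892 other coding genes with H3K4me3 it was highest 100 bp upstream, at 4.86%. That top was nearly level, with 4.67% at the TSS and 4.34% at 100 bp downstream, so its place is poorly defined. All 32 HA-Tex10 intervals that met the body of a ribosomal protein gene came within 1 kb of a TSS of such a gene, and 0 lay only deeper inside. These genes are short, with a median length of 3289 bp, so that 1 kb from a TSS takes in a large part of many of them. The same count was not made for other genes.

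**Figure D2:**
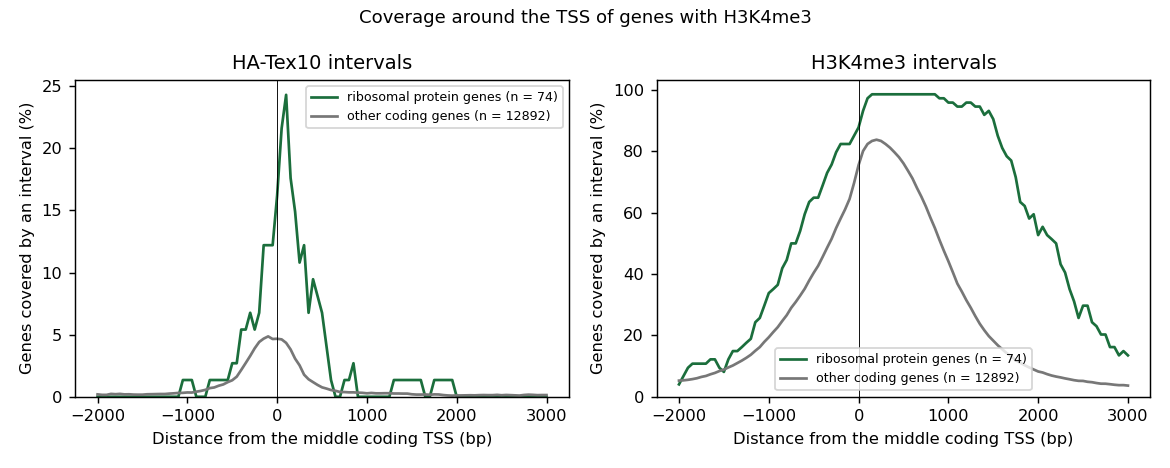
Share of genes covered by an HA-Tex10 interval (left) or an H3K4me3 interval (right) at each distance in bp from the middle coding TSS, for 74 ribosomal protein genes (green) and 12892 other coding genes with H3K4me3 (grey). The green HA-Tex10 line peaks at 24.3% just downstream of the start. The grey line has a nearly level top around the start, highest at 4.86% just upstream. The green H3K4me3 line stays high further into the gene.

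Of the 36 intervals, 35 overlapped H3K4me3 (97.2%), and 33 lay wholly inside an H3K4me3 interval. Over all genes 90.3% of the intervals at a TSS overlapped it. The exception was the interval of 163 bp that lay 918 bp upstream of Rpl23a. It was also among the 2 intervals, with the second interval of Rps2, in which over 50% of the 32-base words occur more than once in the genome (52.3% and 54.5%). Without such intervals 40% of the 75 genes were called, against 8.63% of all protein-coding genes.

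Ribosomal protein genes have many processed pseudogenes, which copy the exons. At least 1 repeated word was found in 19 of the 36 intervals, and 83.8% of all HA-Tex10 intervals at a coding TSS had none. Beside the 2 above, the share was at most 33.6% (Rps29), and it was 0 at Rpl3, Rpl7, Rpl11, Rps3 and Rps7. In the 500 bp on each side of the middle TSS the median share of repeated words was 5.7% for genes with HA-Tex10 (interquartile range 0.85 to 10.2%) and 6.85% for those without (1.2 to 12.7%). These ranges overlap widely. Whether repeats played a part in which genes were called was not tested.

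For 4 of the 36 the nearest coding TSS was that of another gene: Lrsam1 at Rpl12, Lias at Rpl9, Vps52 at the upstream interval of Rps18 and Clhc1 at the narrower interval of Rps27a. When each interval was counted only for the gene with the nearest TSS, 29 of 75 genes kept one (38.7%), and Rpl9 and Rpl12 did not. This alternative was chosen after seeing the data, and it called 7.8% of all protein-coding genes. Another coding TSS lay within 1 kb of a TSS of 17 ribosomal protein genes, and 10 of these had HA-Tex10 (58.8%). Of the 58 without such a neighbour 21 did (36.2%). Among other genes with H3K4me3 the shares were 23.9% of 2477 and 11.8% of 10415. In both sets the share was higher at genes with a close neighbour, a difference that was not tested.

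Of the ribosomal protein genes, 28 hold an annotated snoRNA gene on the same strand. HA-Tex10 was present at 16 of these (57.1%) and at 15 of the 47 others (31.9%). Among other coding genes with H3K4me3 it was present at 43 of 200 snoRNA hosts (21.5%) and 14% of the rest. The interval itself met a snoRNA gene at Rpl13a (Snord33, together with Mir5121) and at Rps2 (Snora78 of the neighbouring Snhg9). The Rpl13a interval over Snord33, at chr7:45126717-45126979 on the minus strand, is counted through a TSS inside the gene. The interval at Rps29 met Rn7s1, a copy of the RNA of the signal recognition particle.

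H3K4me3 lay within 1 kb of a TSS at 74 of the 75 genes (98.7%, 92.8 to 100%), against 62.6% of all protein-coding genes. The exception was Rps27rt. The widest such interval of each gene had a median width of 2588 bp over the 74 genes (interquartile range 2281.75 to 3201.5 bp), against 1354.5 bp over other genes with H3K4me3 (876.0 to 1973.0 bp). A width of 2000 bp or more was reached by 61 of the 74 (82.4%) and by 24.1% of other genes. No ribosomal protein gene was below 1000 bp. The mark reached a median of 812 bp upstream and 1792.5 bp downstream of the nearest TSS, compared with 413 and 900 bp at other genes. It reached further downstream than upstream at 66 of the 74 genes. That count was not made for other genes, whose median reach was also longer downstream. At Rps3a1 and Rps24 the interval began only past the TSS, 69 bp and 1 bp downstream. At Rpl10a the wider of 2 intervals began 36 bp downstream.

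H3K4me3 widths overlapped between ribosomal protein genes with and without HA-Tex10. The medians were 2720 bp (n = 31 genes, interquartile range 2356.5 to 3200.5 bp) and 2560 bp (n = 43, 2204 to 3175 bp). Among the widest without HA-Tex10 were those at Rps13 (3845 bp), Rpl27a (3564 bp), Rpl32 (3515 bp) and Rpl35 (3427 bp). The narrowest were at Rpl29 (1270 bp), Rps15a (1527 bp), Rpl27 (1638 bp), Rps23 (1648 bp) and Rps24 (1673 bp). With HA-Tex10 the range ran from Rpl36 (1519 bp) to Rpl13a (4478 bp), with Rpl7 (4431 bp), Rpl37 (4117 bp) and Rpl18 (4002 bp) next below it.

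Among other genes the share with HA-Tex10 was higher in each wider class of H3K4me3, so the ribosomal protein genes were set beside other genes of the same width. From 2000 to below 3000 bp, HA-Tex10 was present at 14 of 36 ribosomal protein genes (38.9%) and 495 of 2275 other genes (21.8%). From 3000 to below 4000 bp these were 9 of 20 (45.0%) and 147 of 581 (25.3%). From 1000 to below 2000 bp they were 4 of 13 (30.8%) and 831 of 5712 (14.5%), and at 4000 bp or more 4 of 5 (80.0%) and 74 of 248 (29.8%). The share was the higher one at ribosomal protein genes in each of these 4 classes, the last of which holds few of them.

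**Figure D3:**
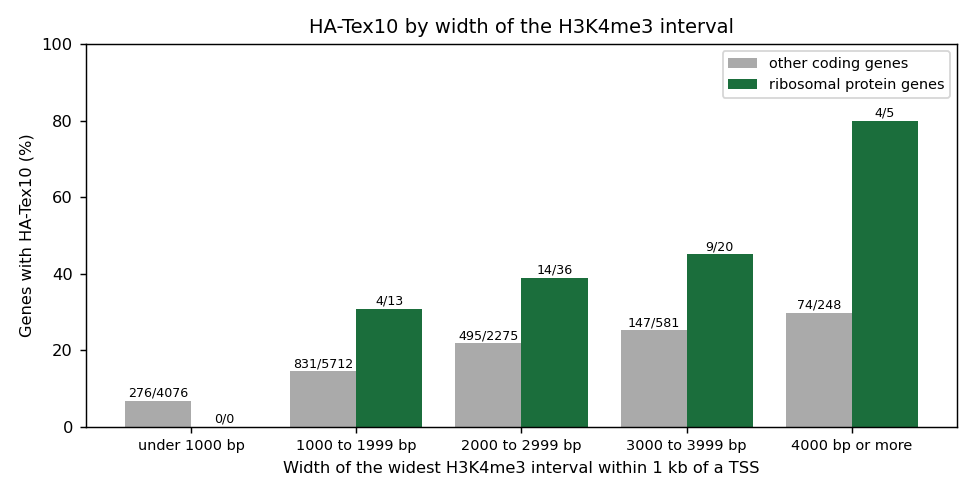
Percentage of genes at which HA-Tex10 was called, by the width of the widest H3K4me3 interval at the gene, in bp, for ribosomal protein genes (green) and other coding genes with H3K4me3 (grey); the numbers above the bars are genes with HA-Tex10 of all genes in the class. The green bar is the taller in each class that holds ribosomal protein genes, and none of these genes falls under 1000 bp.

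The 44 genes without HA-Tex10 within 1 kb were mostly far from any interval. The nearest lay more than 10 kb away for 38 of them. The same count was not made over all genes without HA-Tex10, so whether 38 is many is not known. Rpl41 was just outside the window, 1233 bp from an interval that lies past the end of the gene but inside the same H3K4me3 interval. At the other end, the nearest interval was 2021821 bp from Rps15a and 1937481 bp from Rpl31.

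The promoters were read from RefSeq windows of 250 bp before to 50 bp after the annotated start (GRCm38.p6), which matched 55 of the 75 genes and 15680 coding genes in all. Motifs were searched on both strands. They were the ETS motif CCGGAAG, which factors such as Gabpa bind, the SP motif GGGCGG, and the E-box CACGTG, which Myc binds. They were also the YY1 motif AAGATGG, the NFY motif CCAAT, the TATA box as TATAAA, and the CREB motif TGACGTCA. NRF1 was searched by its palindromic site. No motif contains another whole. The pyrimidine run was the longest stretch of C or T that meets the 50 bp on either side of the start on the coding strand, and it was counted from 8 bases up. Start windows of ribosomal protein genes show such runs, with the longest run of the printed window in capitals, at genes with and without HA-Tex10. Each spans 40 bases before to 15 after the RefSeq start. Rps18 and Rpl13 carry HA-Tex10, and the others do not.
Rps18, chr17:33955651-33955705, minus strand: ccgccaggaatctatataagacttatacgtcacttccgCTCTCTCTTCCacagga
Rpl13, chr8:123102310-123102364, plus strand: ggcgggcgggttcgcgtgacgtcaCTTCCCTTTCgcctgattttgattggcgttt
Rpl4, chr9:64173347-64173401, plus strand: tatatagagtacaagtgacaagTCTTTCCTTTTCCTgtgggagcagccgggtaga
Rps27, chr3:90213634-90213688, minus strand: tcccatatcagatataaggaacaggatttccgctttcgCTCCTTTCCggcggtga
Rps24, chr14:24490638-24490692, plus strand: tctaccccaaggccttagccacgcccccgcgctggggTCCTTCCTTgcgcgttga
Rpl31, chr1:39367811-39367865, plus strand: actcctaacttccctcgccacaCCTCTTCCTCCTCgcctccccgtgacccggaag
In Rps18, Rps27 and Rps24 the run spans the start, and in Rpl4, Rpl13 and Rpl31 it lies just before it. A run of at least 8 was found at 45 of 55 promoters (81.8%), against 36.7% of all promoters and 33.1% of those with H3K4me3. Of the genes with HA-Tex10, 17 of 22 had it (77.3%), and of those without, 28 of 33 (84.8%), with median runs of 10 and 11 bases.

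The ETS motif occurred at 23 of the 55 promoters (41.8%), against 12.6% of all promoters and 18.2% of those with H3K4me3. It was present at 12 of 22 genes with HA-Tex10 (54.5%) and 11 of 33 without (33.3%), a difference between few genes that was not tested. The E-box was at 4 of 22 (18.2%) and 2 of 33 (6.06%), and CCAAT at 4 of 22 (18.2%) and 12 of 33 (36.4%). SP was about even, at 13 of 22 (59.1%) and 19 of 33 (57.6%), and over all 55 genes at 58.2%, between the 48.4% of all promoters and the 67.2% of promoters with H3K4me3. The YY1 letters were at 16.4% of the 55, against 6.48% of all promoters and 7.02% of those with H3K4me3. CREB was at 10.9%, against 2.40% and 3.15%. TATA was at 5.45%, below the 12.9% of all promoters and near the 6.25% of those with H3K4me3. The E-box was at 10.9% of the 55, against 8.07% and 10.2%, and CCAAT at 29.1%, against 38.3% and 38.4%. NRF1 was found at 1 promoter, that of Rpl37a, which had no HA-Tex10. A match says only that these letters are present.

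Within the 36 HA-Tex10 intervals themselves, ETS letters occurred in 8 (22.2%), against 13.8% of the 1771 intervals at any coding TSS, YY1 letters in 6 (16.7% against 5.48%) and SP in 21 (58.3% against 47.0%). NRF1 letters occurred in 0 of 36 and in 2.37% of the 1771. The median GC content was 61.7% against 61.9%, so base composition was alike. It ran from 41.1% at Rps6 to 73.0% at Rpl37.

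Lists of related function were counted in the same way. The genes of the mitochondrial ribosome had HA-Tex10 at 9 of 78 (11.5%, 5.41 to 20.8%), Mrpl4 and Mrps18b among them, with H3K4me3 at all 78 and a median width of 1444.5 bp. A list of 17 other genes of TOP messenger RNAs, many of them translation factors, had it at 5 (29.4%, 10.3 to 56.0%): Eef1a1 and Eef2 (elongation factors), Pabpc1 (poly(A) binding), Hnrnpa1 (splicing) and Npm1 (nucleolus). Their H3K4me3 intervals were nearly as wide as those of ribosomal protein genes, with a median of 2526 bp. The mitochondrial list thus differs from the ribosomal protein genes in H3K4me3 width as well, and no comparison between the lists was tested.

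**Figure D4:**
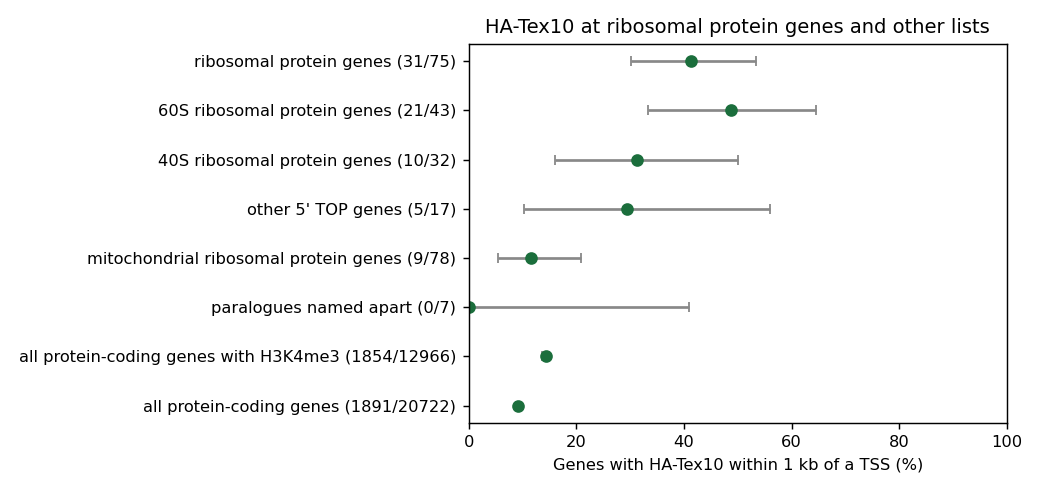
Percentage of genes at which HA-Tex10 was called, for the ribosomal protein genes, their subunits and other lists; points are shares, bars are exact binomial 95% intervals for counting, and the counts stand in the labels. Ribosomal protein genes lie at 41.3%, mitochondrial ribosomal protein genes at 11.5% and all protein-coding genes at 9.13%.

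For the cell label, H3K4me3 was present at Pou5f1, Nanog, Sox2, Prdm1 and Tfap2c, genes of pluripotent and early germ cells. It was not listed at Dppa3 and Nanos3, which are germ cell genes too, so these markers were split. Nor was it listed at the tissue genes Alb, Myh6, Ins2, Hbb-bs and Krt5. Over all protein-coding genes 62.6% had it. The lists hold no expression values. Input DNA was not analysed here.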

How the data were processed

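ChIP-seq intervals of HA-Tex10 and H3K4me3 were used. Per the submitters' processing notes the tools included Bowtie2 2.3.4.3, SAMtools 1.9, MACS2 2.1.2 and HOMER, with build mm10 (GRCm38); their roles and settings, and whether the authors called intervals per sample or on pooled samples, are not given in the sources used here. The authors deposited start and end positions in bp, with no value in the score and strand columns. Checked against GRCm38 chromosome lengths, 0 intervals ran over an end.

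A gene had an interval if the interval's edge came within 1 kb of the start of a protein-coding transcript. Overlap meant at least 1 bp. Words of 32 bases were counted over the 21 assembled chromosomes on both strands, with intervals under 100 bp widened. Counting was tested on simulated data. The members are set by name alone, but they and the lists beside them were chosen for study with earlier results of these data known. Named were all genes with HA-Tex10, those with none within 1 kb but an interval within 2.5 kb, any without H3K4me3, and, without HA-Tex10, the 5 with the widest and the 5 with the narrowest H3K4me3. A few genes that this rule covers are not reported here. Other genes are named for their role, or for their distance or motif after their values were seen. Python 3.11.15, scipy 1.17.1 and pandas 2.3.3 were used. With no replicate values, no test was run.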

Additional observations from a re-analysis of the deposited data

How the results depend on the processing

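No paired analysis was possible because the deposited files give 1 set of positions for HA-Tex10 and 1 for H3K4me3, with no column per sample; leaving out a replicate could not be done either. Of 33 values under alternatives, 28 stayed within the 95% interval of the value as reported; 3 of the 33 were chosen after seeing the data. The share of ribosomal protein genes with HA-Tex10 fell to 22.7% (4.86% of all genes) when only HA-Tex10 intervals wider than their median were kept, a setting that removes the narrower intervals of every gene. The share with H3K4me3 became 100% within 5 kb, and also without Rps27rt. The median H3K4me3 width became 3044 bp when neighbours within 500 bp were merged. The median centre of HA-Tex10 moved to 166 bp downstream when measured from the most upstream TSS. The unknown depth limits which genes could be called.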

Other observations

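The X-linked ribosomal protein genes Rpl10, Rpl36a, Rpl39 and Rps4x had H3K4me3 at 4 of 4, with widths of 910, 1802, 1939 and 2340 bp, and HA-Tex10 at 0 of 4 (exact 95% upper limit 60.2%). With them the share was 31 of 79 (39.2%), against 9.12% of all protein-coding genes with these 4 added. The 7 paralogues with names of their own (Rpl3l, Rpl7l1, Rpl10l, Rpl22l1, Rpl39l, Rpl36al and Rps27l) had HA-Tex10 at 0 of 7 (upper limit 41.0%), and H3K4me3 at 6, the exception being Rpl3l, known from skeletal and heart muscle. Of 260 pseudogenes named after a ribosomal protein gene, HA-Tex10 met 0 (upper limit 1.41%), and H3K4me3 met 13 (5%). Here an interval had to overlap the pseudogene itself, so these shares cannot be set beside those within 1 kb of a TSS. The share over all pseudogenes was not counted, so whether 0 is low for such short features is not known. These upper limits are those of exact binomial 95% intervals and cover the counting of genes only. How reads that fit several places were treated is not given in the sources used here.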
